A study of Mus musculus with 14 samples.

Results

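The suppressor of cytokine signalling (SOCS) genes encode inhibitors that switch cytokine receptors off again, and 4 of them, Cish, Socs1, Socs2 and Socs3, are described here in regulatory T (Treg) cells of mouse spleen and lymph nodes by the accessibility of their chromatin. The assay was bulk ATAC-seq, in which the Tn5 transposase cuts and tags DNA where it is not packed away, so that the number of reads over a site measures how open that site was. The members were the windows of the deposited count table, each spanning 201 bp, whose centre had one of the 4 genes as its nearest protein-coding start site within 100 kb. That rule used positions only and found 113 of 240778 windows, of which 58 belonged to Socs1, 20 to Socs2, 20 to Socs3 and 15 to Cish.

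All 14 mice carried Foxp3AID, in which the Treg-defining factor Foxp3 is fused to an auxin-inducible degron and a ZsGreen reporter and Cre recombinase are made from the same transcript. All of them also received 5-ph-IAA, the drug that brings the degron to the plant ligase TIR1(F74G), for 3 or 7 days. The R26TIR1(F74G) mice carried that ligase and mCherry at the ROSA26 locus, under the ubiquitous CAG promoter and behind a STOP cassette that Cre made in Foxp3-expressing cells removes, and the R26WT mice did not carry it, so that Foxp3 protein could be degraded only in R26TIR1(F74G). There were 4 mice of each genotype on day 3 and 3 of each on day 7, with 50000 cells in each library, and every mouse was sampled once. The labels call the mice adult and give no age, sex or activation state. The study describes resting and activated Treg cells for this assay, and experiments in heterozygous Foxp3AID/WT females, but which of these a library came from cannot be told from the labels. Per the methods the R26WT cells were sorted as ZsGreen+ and the R26TIR1(F74G) cells as ZsGreen+mCherry+, so the gate differed with the genotype. Foxp3 is removed as protein, so its own locus does not show whether degradation took place.

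Cytokine receptors carry JAK kinases, which on binding of a cytokine phosphorylate the receptor and then the STAT factors that travel to the nucleus. SOCS genes are themselves targets of STAT factors, and their proteins close the loop. Each has an SH2 domain that binds phosphorylated tyrosines and a SOCS box that recruits a ubiquitin ligase, and SOCS1 and SOCS3 also block JAK catalytic activity directly. CIS, the product of Cish, occupies the sites on receptors of the interleukin-2 family where STAT5 would dock. Treg cells depend on interleukin-2 and STAT5, and SOCS1 in Treg cells is known for holding back interferon signalling.

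The libraries held between 5653289 and 20184487 counts, and 2 were shallow, with fewer than 10000000, namely replicate 1 of day 3 R26TIR1(F74G) (5653289) and replicate 3 of day 7 R26WT (6348754). Levels are given in CPM, counts scaled to library size with the trimmed mean of M values (TMM), and differences as R26TIR1(F74G) against R26WT on the log2 scale with their standard error (SE). The window nearest the start site of 6 of 6 Treg marker genes was in the table, with a median of 13.6 CPM, against 7.13 CPM over all genes. The corresponding medians were 1.50 CPM for 4 B cell markers and 1.24 CPM for 4 of 6 myeloid markers, while Ms4a1, Csf1r and Fcgr3 had no window, and of the CD8 T cell markers Cd8a had 1.33 CPM and Cd8b1 12.5 CPM. For some markers the nearest window was not close to the start site. It was at 33624 bp for the B cell marker Blk, -9838 bp for the NK cell marker Klrb1c and -4002 bp for the Treg marker Tnfrsf18. Summed over 3 NK cell markers, the levels were 7.08 to 9.36 CPM in day 3 R26WT and 10.1 to 11.8 CPM in day 3 R26TIR1(F74G), and summed over 3 T cell markers 25.5 to 28.0 CPM and 17.4 to 24.1 CPM, so both lists separated the genotypes on day 3. The Treg sums overlapped at 80.2 to 92.0 and 70.4 to 82.5 CPM, and on day 7 all 3 lists overlapped. The part of these levels in the SOCS results was not tested. In bulk cells, fewer cells with an open site and less opening per cell cannot be told apart.

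The DNA just upstream of the start sites is shown for 3 of the genes, and highly open windows of these genes lie on or beside it. The promoter sequences available did not include Socs2, although open windows of Socs2 also lie at its start site. The sequences are from RefSeq on GRCm38.p6, 250 bases before the start site, 5′ to 3′ on the strand of the gene, in lower case, with matches to a motif in capitals. The motifs searched on both strands were the STAT palindrome TTCNNNGAA, its form with a longer spacer TTCNNNNGAA, the interferon regulatory factor pair GAAANNGAAA and the forkhead core TGTTTAC.
Cish, chr9:107296409-107296658, + strand, no match upstream: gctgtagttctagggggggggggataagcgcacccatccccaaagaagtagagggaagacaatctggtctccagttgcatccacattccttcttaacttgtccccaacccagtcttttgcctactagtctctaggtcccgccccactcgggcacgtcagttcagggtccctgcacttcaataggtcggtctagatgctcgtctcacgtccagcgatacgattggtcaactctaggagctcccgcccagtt
Socs3, chr11:117969367-117969616, - strand, 1 STAT palindrome: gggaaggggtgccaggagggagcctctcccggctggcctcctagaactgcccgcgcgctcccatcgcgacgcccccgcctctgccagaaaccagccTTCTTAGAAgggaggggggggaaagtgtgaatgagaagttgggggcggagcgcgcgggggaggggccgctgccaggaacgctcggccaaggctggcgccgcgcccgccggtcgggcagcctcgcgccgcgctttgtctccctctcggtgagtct
Socs1, chr16:10785537-10785786, - strand, 2 overlapping interferon regulatory factor pairs: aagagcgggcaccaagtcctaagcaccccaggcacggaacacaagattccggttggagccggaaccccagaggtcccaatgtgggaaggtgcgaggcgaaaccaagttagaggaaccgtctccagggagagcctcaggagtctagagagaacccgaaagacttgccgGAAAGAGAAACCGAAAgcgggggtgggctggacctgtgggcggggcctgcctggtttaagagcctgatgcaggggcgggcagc

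At Cish the STAT palindromes began 1 and 12 bases into the transcript, in the stretch chr9:107296656-107296684, shown here with both in capitals.
Cish start site, + strand: gttTTCCTGGAAagTTCTTGGAAatctgt

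In the region from 250 bases before to 50 after the start site, TTCNNNGAA was found in 7.69% of 21263 promoters, GAAANNGAAA in 3.35%, TTCNNNNGAA in 6.35% and TGTTTAC in 3.01%. Counted from the start site, the match of Socs3 began at base -154 and those of Socs1 at bases -83 and -77. The letters TTCNNNNGAA and TGTTTAC were not present in the 3 promoters. GC content upstream was 71.6% at Socs3, 61.2% at Socs1 and 55.2% at Cish. The sequence of Socs3 starts from a RefSeq transcript that begins inside the annotated gene, so it lies against the window 1045 bp downstream of the gene's outer end. These matches are a description of the letters and not of binding.

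The 4 loci differed in how their open sites were laid out. Windows are named by the distance in bp of their centre from the start site, with a plus for the direction of transcription, and coordinates are on GRCm38. Of the 15 Cish windows, 6 were within 1 kb of the start site, 5 lay upstream and 2 fell inside the gene (chr9:107296659-107302784, + strand), with the others reaching to +17254. Socs2 had 18 of 20 windows inside its longer gene (chr10:95383903-95417321, - strand). For Socs3 (chr11:117966079-117970336, - strand) and Socs1 (chr16:10783808-10785536, - strand) 5 windows each were inside the gene, and the windows of Socs1 stretched to +95847, farther than those of the other genes. Some windows overlap, and reads over them are counted in both, so 85 of the 113 that do not overlap a more accessible one were used for sums per gene.

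**Figure D1:**
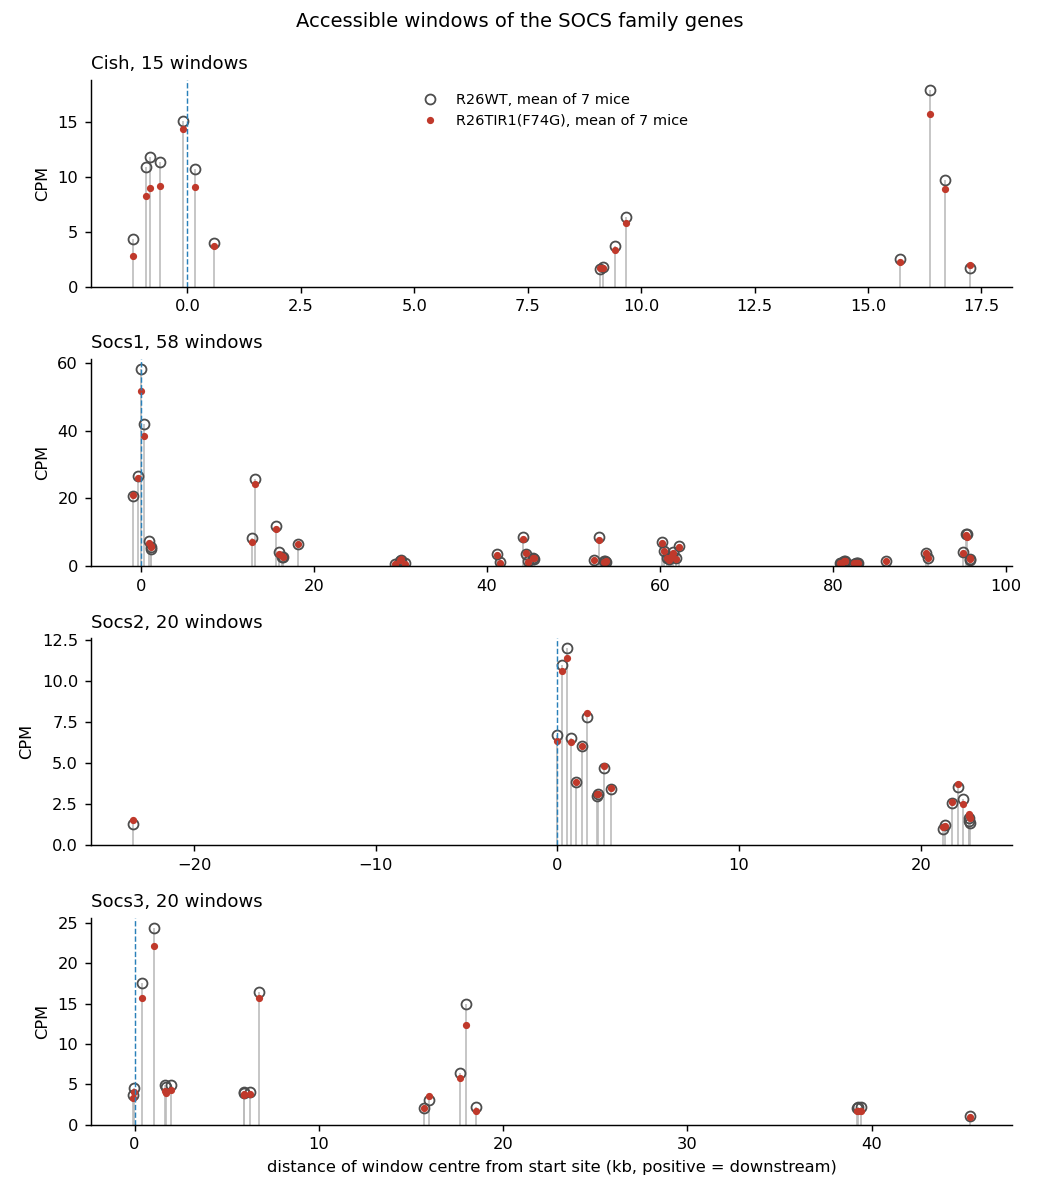
Accessibility along the 4 loci. Each panel plots the mean CPM of every window of one gene against the distance of its centre from the start site in kb, with open circles for the mean of the 7 R26WT mice, filled circles for the mean of the 7 R26TIR1(F74G) mice and a dashed line at the start site. The highest windows of Socs1, Socs2 and Socs3 lie close to the start site, up to 54.9 CPM at Socs1 +48. Cish has high windows both at the start site and near +16 kb (16.8 CPM at +16376). High windows away from the start site are also seen at Socs1 +13262 (25.0 CPM), Socs3 +6765 (16.1 CPM) and Socs3 +17991 (13.7 CPM).

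The most open window was Socs1 +48, which overlaps the start site and had a mean of 54.9 CPM, higher than 99.7% of all windows. The highest means were 23.3 CPM at Socs3, 16.8 CPM at Cish and 11.7 CPM at Socs2. The median window had 6.07 CPM at Cish, 3.95 CPM at Socs3, 3.29 CPM at Socs2 and 2.38 CPM at Socs1, so Socs1 combined the most open start site with the weakest typical window. Of the 58 Socs1 windows only 25 were within 50 kb of the start site. Windows were given to a gene by nearness alone, which does not show that they act on it.

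Summed over windows and divided by the length counted, the level was 36.8 CPM per kb for Socs1, 36.2 for Cish, 35.7 for Socs3 and 24.2 for Socs2. The first 3 lay above about the same share of genes (73.3%, 72.5% and 71.8% of 13190 genes with at least 3 windows), and Socs2 lay near the median of 23.0 CPM per kb, above 52.6%. Socs1 varied least over the 14 libraries, with an SD of 0.096 on the log2 scale that was larger than that of 10.8% of genes. The SD was 0.122 for Socs2, 0.142 for Cish and 0.159 for Socs3, the last larger than that of 61.8% of genes.

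No member window passed an adjusted p of 0.05 (edgeR quasi-likelihood test, Benjamini-Hochberg over all windows) for the genotypes on either day or across the days, for the days, or for the interaction of day and genotype. Few windows passed anywhere, with 0.00463% of all windows called on day 7, 0.0% on day 3, 0.0112% over both days, 0.00332% between days and 0.0% for the interaction. DESeq2 called no member window in any of the 5 comparisons either. At an unadjusted p under 0.05 there were 6 of 112 members on day 7 (5.36%, against 5.95% of all windows), 8 of 112 on day 3 (7.14%, against 7.55%) and 9 of 113 over both days (7.96%, against 6.73%). For day 7 against day 3 there were 6 of 113 (5.31%, against 5.47% of all windows) and for the interaction 3 of 113 (2.65%, against 6.32%). The share of the members was above that of all windows only over both days, by little, and below it in the other 4 comparisons.

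The direction was less even than the count. Of the members at an unadjusted p under 0.05, 2 were higher and 4 lower on day 7, 1 was higher and 7 lower on day 3, and all 9 were lower over both days. By gene, the 9 comprised 6 of the 15 Cish windows (40.0%, against 6.73% of all windows), 2 of Socs3 and 1 of Socs1. The 6 include Cish -909 and -833, which overlap and share reads. The split of all windows by direction at that p was not counted. On day 3, 5 member windows had every R26TIR1(F74G) mouse below every R26WT mouse and 1 had every mouse above, where 2.11% of all windows were below and 2.0% above. On day 7 the 7 separated downward were 4 of Cish, 2 of Socs2 and 1 of Socs3, and the 3 separated upward were all of Socs1, with 6.02% and 5.81% of all windows. Among these, Cish -909 and -833 overlap and share reads, and so do Socs1 +61293 and +61241. The last 2 are also the 2 members that were higher on day 7 at an unadjusted p under 0.05. The median log2 difference of the members was -0.11 on day 3 (0.01 over all windows), -0.02 on day 7 (-0.01) and -0.08 across the days (0.00).

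Highly open windows as a class also lay low on day 3. Among the 24078 windows with the highest mean CPM, 80.3% were below 0 on day 3 with a median of -0.11, and 19 of the 21 members in that class were below 0 with a median of -0.20. On day 7, 45.0% of that class were below 0 with a median of 0.02, and 15 of the 21 members were below 0 with a median of -0.10. That class took 48.87 to 52.84% of the counts of the day 3 R26WT libraries and 46.59 to 50.09% of those of day 3 R26TIR1(F74G). With offsets fitted by loess to the count level in place of TMM, the Socs1 +48 difference over both days was -0.08 rather than -0.18, and the Cish -833 difference on day 3 was -0.31 rather than -0.40.

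Of the 4 genes, Cish had the largest share of windows at an unadjusted p under 0.05 over both days (40.0%, against 6.73% of all windows). All of them were lower in R26TIR1(F74G), none was called, and -909 and -833 among them share reads. The summed level of Cish in day 3 R26WT was 35.0, 38.7, 36.4 and 43.7 CPM per kb (38.5 ± 3.81, SD, n = 4) and in day 3 R26TIR1(F74G) 33.9, 34.9, 29.5 and 33.6 (33.0 ± 2.40, n = 4). On day 7 the R26WT mice had 36.9, 38.9 and 41.4 CPM per kb (39.1 ± 2.29, n = 3) and the R26TIR1(F74G) mice 34.8, 33.1 and 35.8 (34.6 ± 1.40, n = 3). On each day every R26TIR1(F74G) mouse was below every R26WT mouse of that day, although day 3 R26WT replicate 1, at 35.0, was only just above the highest of the other genotype. This held on day 3 for 6.32% of genes, on day 7 for 8.11% and on both days for 0.727%.

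The log2 difference of the Cish sum was -0.16 (SE 0.05) over both days, with -0.16 (SE 0.06) on day 3 and -0.16 (SE 0.07) on day 7. The unadjusted p was 0.00205 over both days and the adjusted p over all genes 0.150 (edgeR), so it was not called, and leaving out day 7 R26WT replicate 3 brought the day 7 value to -0.09. DESeq2 gave the same difference with an adjusted p of 0.0484, under the threshold, and called 1.33% of all genes, while in the other 4 comparisons it called no member gene. The edgeR test of gene sums called 0.0689% of genes over both days, 0.163% on day 3, 0.0% on day 7, 0.0% between days and 0.0% for the interaction, and none of the 4 members in any of them. At an unadjusted p under 0.05 the shares of all genes were 14% over both days, 16.9% on day 3, 7.67% on day 7, 5.7% between days and 10.2% for the interaction, and among the members they held Cish and Socs3 over both days and on day 3, Cish on day 7, and Socs2 between days and for the interaction.

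**Figure D2:**
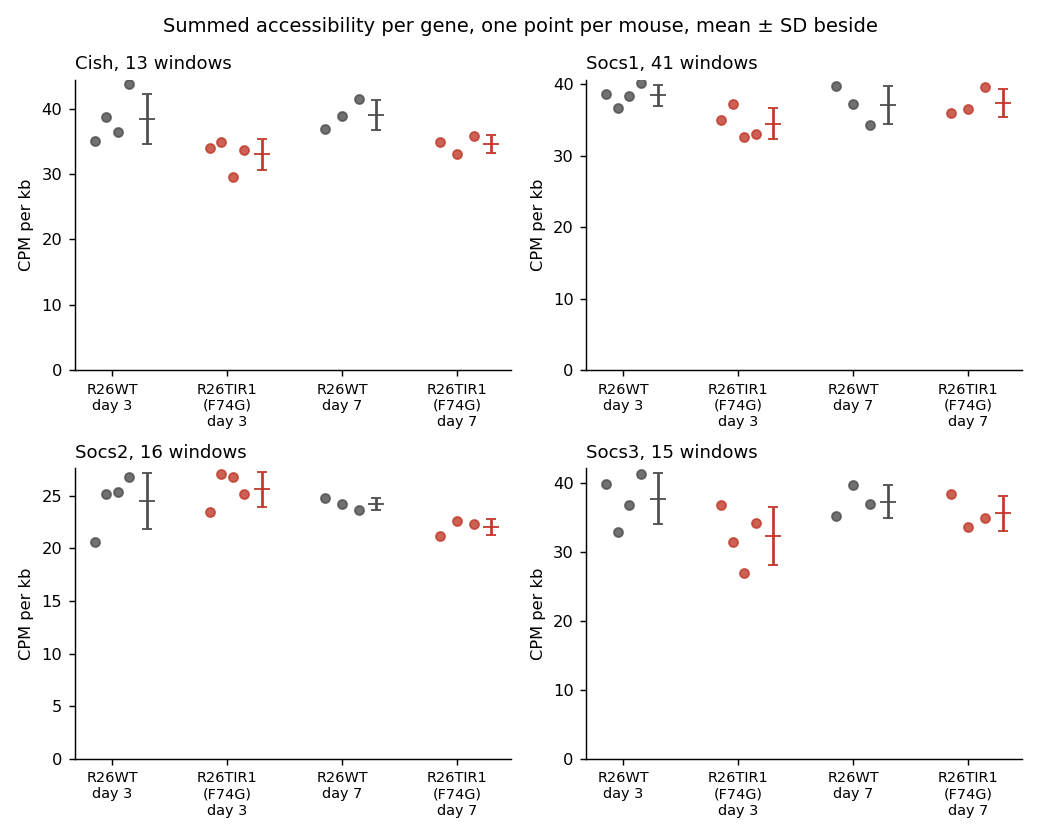
Summed accessibility of the 4 genes in every mouse. The vertical axis is CPM per kb of counted windows, each point is a mouse, and the bar beside each group is its mean ± SD with 4 mice per group on day 3 and 3 on day 7. Cish is lower in every R26TIR1(F74G) mouse than in every R26WT mouse of the same day, and Socs2 is so on day 7 alone.

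Within the Cish locus the 4 most negative differences over both days were those of the 4 windows farthest upstream, from -1209 to -599. The window at -833 (chr9:107295726-107295927, outside the gene) had 11.6, 10.3, 11.7 and 13.3 CPM in day 3 R26WT and 7.73, 11.4, 7.16 and 8.69 CPM in day 3 R26TIR1(F74G). On day 7 it had 11.3, 12.1 and 12.6 CPM in R26WT and 9.73, 9.06 and 9.21 CPM in R26TIR1(F74G). Thus 6 of the 7 R26TIR1(F74G) mice were below the lowest of the 7 R26WT mice, and replicate 2 of day 3 was the exception. At least 6 of 7 below was seen for 0.392% of all windows. Since -833 was named for its small p, this share is not separate evidence for it. The difference over both days was -0.38 (SE 0.10), with an unadjusted p of 0.000648 and an adjusted p of 0.383 (edgeR). It was -0.40 (SE 0.15) on day 3 and -0.35 (SE 0.14) on day 7, with adjusted p of 0.547 and 0.786. DESeq2 gave an adjusted p of 0.0579 over both days, just above the threshold and the lowest of all alternatives, which reached up to 0.659.

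The farthest upstream window, Cish -1209 (chr9:107295350-107295551), was less open and differed by more. Its levels were 3.64, 3.31, 3.89 and 4.19 CPM in day 3 R26WT against 2.16, 4.02, 2.31 and 2.65 CPM in day 3 R26TIR1(F74G), and 4.20, 4.30 and 6.75 CPM against 2.99, 2.68 and 2.88 CPM on day 7. Again replicate 2 of day 3 was the only R26TIR1(F74G) mouse above the lowest R26WT mouse. The difference was -0.75 (SE 0.21, adjusted p = 0.533) on day 7, -0.36 (SE 0.21, adjusted p = 0.715) on day 3 and -0.54 (SE 0.15, adjusted p = 0.385) over both days. The R26WT value of 6.75 CPM came from the shallow library, and without it the day 7 difference was -0.57. Without both shallow libraries the difference over both days was -0.42.

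At the start site the difference over both days was smaller, and the windows were not tested against each other. The window at -100 (chr9:107296459-107296660), which covers most of the upstream sequence printed above and touches the start of the STAT stretch, had 14.4, 15.7, 14.7 and 15.5 CPM in day 3 R26WT and 10.6, 14.8, 10.5 and 15.8 CPM in day 3 R26TIR1(F74G). On day 7 it had 14.9, 17.0 and 13.5 CPM in R26WT and 16.2, 14.4 and 18.2 CPM in R26TIR1(F74G). The genotypes overlapped on both days, and the difference over both days was -0.07 (SE 0.10, adjusted p = 0.948). It was -0.20 (SE 0.14) on day 3 and 0.09 (SE 0.13) on day 7. Of the other windows near the start site, named here after their values were seen, -599 had -0.30, +168 had -0.23 and +591 had -0.10 over both days. The window at -909, which overlaps -833 and shares reads with it, had -0.37. At +168 the difference was -0.33 (SE 0.14) on day 3, with every R26TIR1(F74G) mouse below every R26WT mouse. On day 7 it was -0.10 (SE 0.15) there, and the genotypes overlapped.

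The other strong Cish site, +16376 (chr9:107312935-107313136), lies beyond the end of the gene and was as open as the start site. It had 14.4, 18.8, 16.3 and 20.2 CPM in day 3 R26WT, 18.5, 16.3, 13.8 and 14.2 CPM in day 3 R26TIR1(F74G), 19.4, 17.8 and 18.9 CPM in day 7 R26WT, and 15.1, 16.3 and 15.8 CPM in day 7 R26TIR1(F74G). The genotypes overlapped on day 3 and not on day 7. The difference was -0.25 (SE 0.13) on day 7 and -0.21 (SE 0.09, adjusted p = 0.702) over both days. Of the 15 Cish windows 11 were below 0 on both days, with a median of -0.14 in the test over both days. In this count by sign, and in those of the other genes, overlapping windows share reads. The matching share of all windows was not counted.

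**Figure D3:**
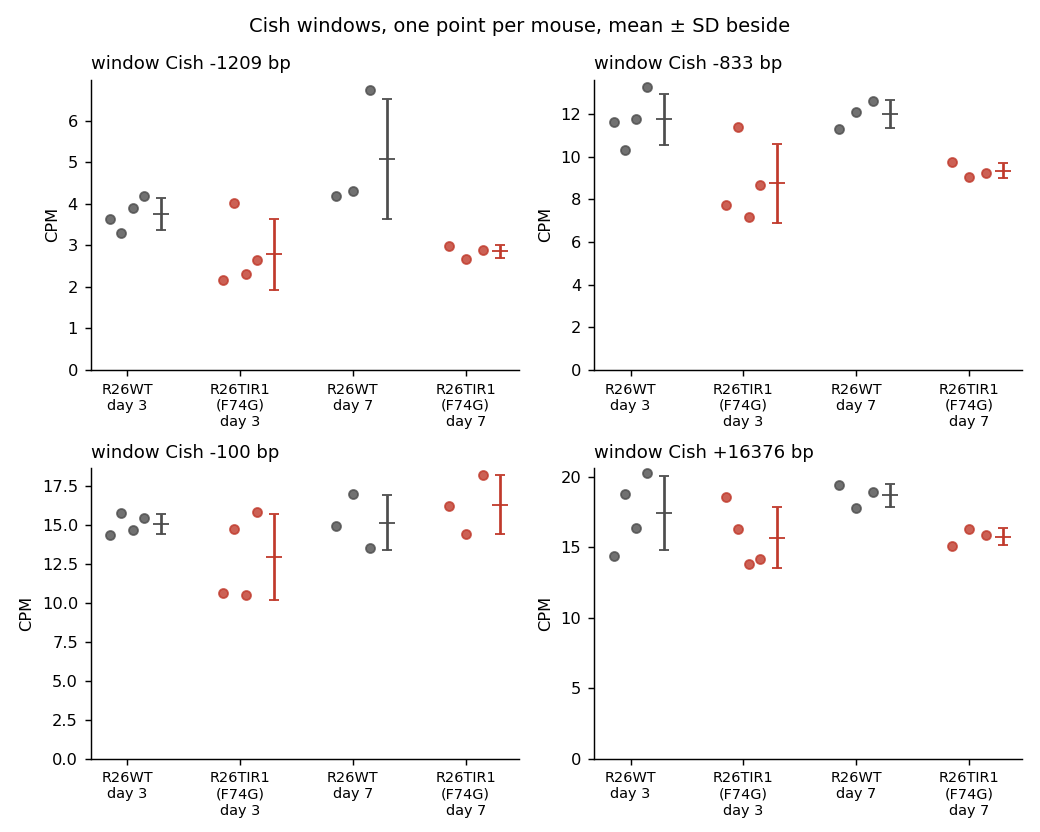
CPM in every mouse at 4 windows of Cish, at -1209, -833, -100 and +16376 bp from the start site, by day and genotype, with the mean ± SD beside each group. At -833 and -1209 6 of 7 R26TIR1(F74G) mice lie below all R26WT mice, and at -100 the genotypes overlap on both days.

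Socs3 encodes an inhibitor best known as the brake on receptors of the interleukin-6 family. Its sum was 39.8, 33.0, 36.8 and 41.3 CPM per kb in day 3 R26WT (37.7 ± 3.69) and 36.8, 31.4, 27.0 and 34.1 in day 3 R26TIR1(F74G) (32.3 ± 4.19). On day 7 it was 35.2, 39.8 and 37.0 in R26WT (37.3 ± 2.33) and 38.5, 33.6 and 34.9 in R26TIR1(F74G) (35.6 ± 2.53). The genotypes overlapped on both days. The difference was -0.17 (SE 0.07, adjusted p = 0.249) on day 3, -0.06 (SE 0.07) on day 7 and -0.12 (SE 0.06, adjusted p = 0.326) over both days, and the unadjusted p of the first and last was 0.0302 and 0.0385. A difference between the days was not called, with an interaction of 0.11 (SE 0.11, adjusted p = 0.751), and the day 7 value was -0.12 without R26TIR1(F74G) replicate 1 and -0.02 without replicate 2. Of its 20 windows 13 were below 0 on both days.

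Among the Socs3 windows the site with the smallest p on day 3 was +17991 (chr11:117952245-117952446), outside the gene. It had 16.3, 14.8, 15.2 and 18.0 CPM in day 3 R26WT against 16.5, 10.5, 10.8 and 11.2 CPM in day 3 R26TIR1(F74G), and 15.8, 13.3 and 11.5 against 12.5, 12.9 and 12.3 CPM on day 7. Of the 4 day 3 R26TIR1(F74G) mice, 3 were below all 4 R26WT mice, and the shallow replicate 1 was among the R26WT values. The difference was -0.44 (SE 0.14, adjusted p = 0.477) on day 3, -0.13 on day 7 and -0.30 (SE 0.10, adjusted p = 0.541) over both days, and -0.58 on day 3 without that replicate.

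The most open Socs3 window, +1045 (chr11:117969191-117969392), overlaps the printed upstream sequence only at its end near the transcript start. The window does not cover the STAT palindrome in that sequence. It had 25.8, 19.5, 23.3 and 29.5 CPM in day 3 R26WT, 22.5, 20.4, 14.5 and 21.0 CPM in day 3 R26TIR1(F74G), 21.3, 29.5 and 21.9 CPM in day 7 R26WT, and 28.2, 24.9 and 23.2 CPM in day 7 R26TIR1(F74G). The difference was -0.34 (SE 0.13, adjusted p = 0.568) on day 3 and 0.05 (SE 0.13) on day 7, and the genotypes overlapped on both days. At the outer start site, the window at -26 (chr11:117970262-117970463) had 6.15, 4.56, 4.17 and 4.31 CPM in day 3 R26WT and 3.60, 3.70, 3.35 and 4.02 CPM in day 3 R26TIR1(F74G), with no overlap. There too the day 3 difference of -0.37 (SE 0.19, adjusted p = 0.669) stood beside 0.05 on day 7.

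Socs1 encodes an inhibitor that blocks JAK kinases directly. Its sum was 38.6, 36.7, 38.4 and 40.2 CPM per kb in day 3 R26WT (38.5 ± 1.45), 35.0, 37.3, 32.6 and 33.1 in day 3 R26TIR1(F74G) (34.5 ± 2.15), 39.7, 37.2 and 34.4 in day 7 R26WT (37.1 ± 2.67) and 36.0, 36.6 and 39.6 in day 7 R26TIR1(F74G) (37.4 ± 1.91). The difference was -0.09 (SE 0.05, adjusted p = 0.296) on day 3 and 0.02 (SE 0.05) on day 7, where the genotypes overlapped and the sign changed when any 1 of 3 libraries was left out. Over both days it was -0.05 (SE 0.03, adjusted p = 0.556), and the interaction of day and genotype was 0.11 (SE 0.07, unadjusted p = 0.118, adjusted p = 0.582). Of 56 windows tested on both days, 15 were below 0 on both, 9 above on both and 32 had opposite signs.

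The start site window Socs1 +48 (chr16:10785388-10785589), which overlaps the first bases of the gene and part of the upstream sequence shown, had 63.9, 54.6, 56.3 and 67.1 CPM in day 3 R26WT and 49.1, 55.5, 48.8 and 47.3 CPM in day 3 R26TIR1(F74G). On day 7 it had 63.2, 59.7 and 42.9 CPM in R26WT and 50.8, 51.8 and 58.1 CPM in R26TIR1(F74G). The lowest R26WT value, 42.9 CPM, was from the shallow day 7 library, and the genotypes overlapped on both days. The difference was -0.27 (SE 0.11, adjusted p = 0.583) on day 3, -0.06 (SE 0.12) on day 7 and -0.18 (SE 0.08, adjusted p = 0.724) over both days.

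Inside the gene, Socs1 +404 (chr16:10785032-10785233) had 41.9, 37.8, 40.4 and 46.2 CPM in day 3 R26WT and 39.4, 39.5, 35.7 and 33.5 CPM in day 3 R26TIR1(F74G). Its day 7 levels were 46.1, 42.7 and 39.4 CPM in R26WT and 37.8, 38.0 and 44.7 CPM in R26TIR1(F74G), and the difference over both days was -0.14 (SE 0.08). Far downstream, +61241 (chr16:10724195-10724396) had low levels that ordered the other way on the 2 days. It had 3.55, 3.24, 2.46 and 2.60 CPM in day 3 R26WT against 1.80, 3.81, 1.34 and 2.25 CPM in R26TIR1(F74G), and 2.52, 2.09 and 2.55 against 2.89, 3.58 and 3.34 CPM on day 7. The genotype differences were -0.27 (SE 0.24) and 0.47 (SE 0.23), and the interaction was 0.73 (SE 0.35, unadjusted p = 0.0395, adjusted p = 0.784). It was 1.18 without day 3 R26TIR1(F74G) replicate 2, and 0.52 with an unadjusted p of 0.132 (edgeR) without replicate 3.

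Socs2, best known for restraining growth hormone signalling, had opposite signs on the 2 days at 17 of its 20 windows. Its sum was 20.6, 25.2, 25.4 and 26.8 CPM per kb in day 3 R26WT (24.5 ± 2.66) and 23.5, 27.1, 26.8 and 25.2 in day 3 R26TIR1(F74G) (25.6 ± 1.65), which overlapped. On day 7 it was 24.8, 24.2 and 23.7 in R26WT (24.2 ± 0.542) and 21.2, 22.6 and 22.3 in R26TIR1(F74G) (22.0 ± 0.770), which did not. The difference was 0.14 (SE 0.07, adjusted p = 0.329) on day 3 and -0.13 (SE 0.07, adjusted p = 0.652) on day 7, and the day 3 value was 0.09 without R26TIR1(F74G) replicate 3. The interaction on summed counts, added after these opposite signs were seen, was -0.27 (SE 0.10), with an unadjusted p of 0.0136 and an adjusted p of 0.424 (edgeR), so a difference between the days was not called.

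The Socs2 window with the smallest p for the interaction was +1629 (chr10:95415592-95415793), inside the gene. It had 6.49, 8.53, 7.31 and 7.49 CPM in day 3 R26WT and 10.1, 7.24, 9.69 and 9.49 CPM in day 3 R26TIR1(F74G). On day 7 it had 9.43, 7.50 and 7.80 CPM in R26WT and 6.63, 6.08 and 6.88 CPM in R26TIR1(F74G). Of the 4 R26TIR1(F74G) mice, 3 were above all R26WT mice on day 3, and on day 7 all 3 were below. The genotype differences were 0.26 (SE 0.15) and -0.34 (SE 0.16, adjusted p = 0.828), and the interaction was -0.60 (SE 0.22, unadjusted p = 0.00904, adjusted p = 0.721).

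The windows around the Socs2 start site were lower in R26TIR1(F74G) on day 7 without a call. At -19 (chr10:95417240-95417441) the day 7 levels were 6.98, 7.50 and 7.20 CPM in R26WT and 4.71, 5.60 and 6.98 CPM in R26TIR1(F74G), and those of day 3 were 6.06, 6.09, 6.15 and 7.08 against 5.40, 7.83, 6.26 and 7.48 CPM. The difference was -0.32 (SE 0.17) on day 7 and 0.12 on day 3. At +269 (chr10:95416952-95417153) the day 7 levels were 10.7, 12.3 and 10.2 CPM against 9.04, 9.78 and 9.46 CPM, with no overlap and a difference of -0.25 (SE 0.14), and the day 3 levels of 8.48, 11.0, 10.9 and 13.2 against 9.53, 13.6, 11.6 and 11.2 CPM overlapped. The most open window, +530 (chr10:95416691-95416892), had 11.2, 12.5 and 11.1 CPM against 9.30, 11.3 and 10.0 CPM on day 7, and 9.35, 11.8, 12.2 and 15.7 against 10.8, 14.2, 12.4 and 11.6 CPM on day 3, overlapping on both days.

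**Figure D4:**
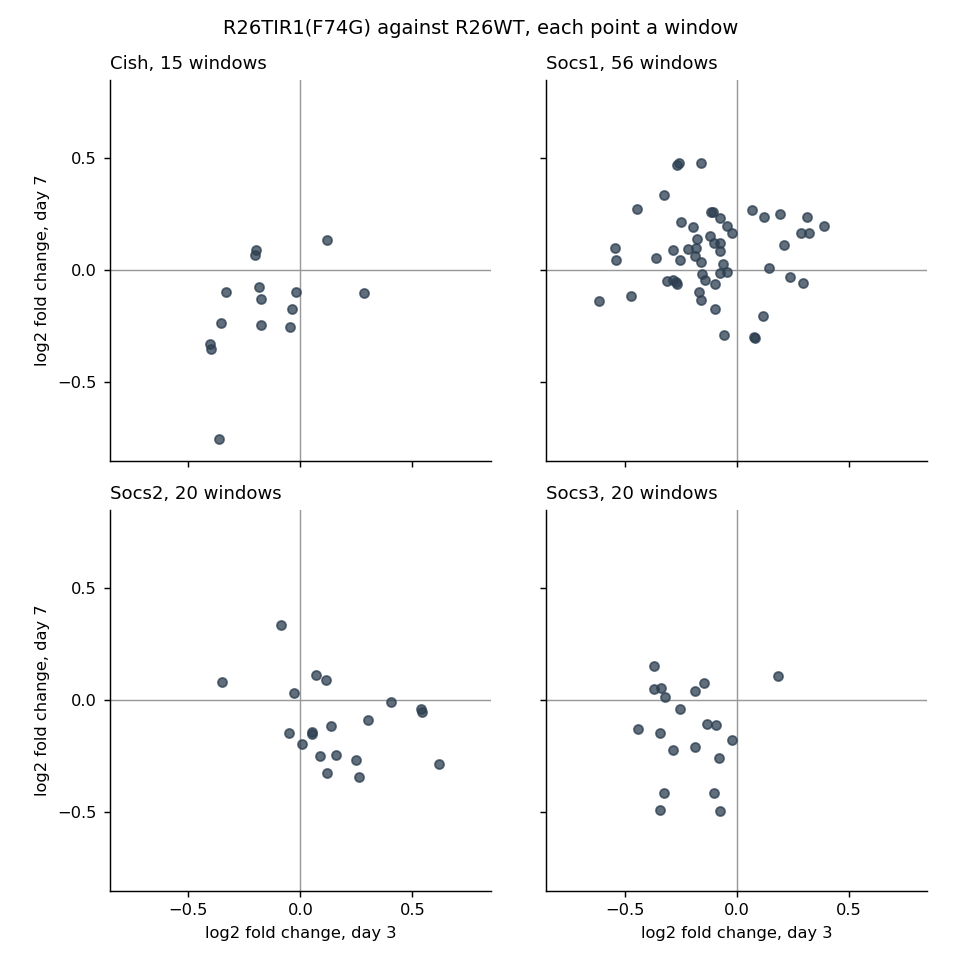
Log2 difference of R26TIR1(F74G) against R26WT on day 3 (horizontal) and day 7 (vertical) for every window of the 4 genes that was tested on both days, 15 of Cish, 20 of Socs3, 56 of Socs1 and 20 of Socs2. Of the Cish windows 11 lie at the lower left, where both days are below 0, as do 13 of Socs3 and 15 of Socs1. Of the Socs2 windows 17 have opposite signs on the 2 days, and of the Socs1 windows 32. Of all windows, 48.8% were below 0 on day 3 and 51.0% on day 7, and their signs on the 2 days together were not counted. Overlapping windows share reads.

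Ordered by group mean, Cish was highest in day 7 R26WT (39.1 CPM per kb), then day 3 R26WT (38.5), day 7 R26TIR1(F74G) (34.6) and day 3 R26TIR1(F74G) (33.0). Neighbours in this order overlapped in their values, including the R26WT and R26TIR1(F74G) groups that adjoin in it, where the lowest day 3 R26WT mouse (35.0) was below the highest day 7 R26TIR1(F74G) mouse (35.8). For Socs3 and Socs1 the order began with day 3 R26WT and ended with day 3 R26TIR1(F74G), and neighbours overlapped in their values. For Socs2 it began with day 3 R26TIR1(F74G) and ended with day 7 R26TIR1(F74G), and only that last step separated groups without overlap.

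Between days, over both genotypes, 4 member windows were higher and 2 lower on day 7 at an unadjusted p under 0.05, and 3 of the higher ones were at Socs3. Of these, +1728 and +1658 overlap and share reads. Socs3 +424 (chr11:117969812-117970013) had 17.5, 14, 16.3 and 19.4 CPM in day 3 R26WT, 11.7, 15.2, 12.5 and 16.3 CPM in day 3 R26TIR1(F74G), 17.5, 20.7 and 17.5 CPM in day 7 R26WT, and 17.7, 17.2 and 19.7 CPM in day 7 R26TIR1(F74G). In R26TIR1(F74G) every day 7 mouse was above every day 3 mouse, and in R26WT the days overlapped. The difference of day 7 against day 3 was 0.26 (SE 0.10, unadjusted p = 0.00908, adjusted p = 0.852). Cish +9660 (chr9:107306219-107306420) had 5.97, 6.42, 6.15 and 9.15 CPM in day 3 R26WT and 8.27, 5.90, 5.44 and 5.95 CPM in day 3 R26TIR1(F74G), against 5.62, 4.36 and 6.90 CPM and 5.56, 4.47 and 4.81 CPM on day 7, a difference of -0.34 (SE 0.13, adjusted p = 0.866). On summed counts the difference between days was -0.14 (SE 0.06, unadjusted p = 0.0215, adjusted p = 0.870) for Socs2, 0.05 for Socs3, 0.03 for Cish and 0.02 for Socs1. The mice of the 2 days are different animals, so the day and anything handled with it cannot be told apart.

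The rest of the pathway was read from 36 genes, namely 11 receptor chains, 4 JAK kinases, 7 STAT factors, 5 known targets and 9 other inhibitors, all of which could be tested on summed counts. None was called in any of the 5 comparisons. At an unadjusted p under 0.05 there were 7 on day 7 (3 higher and 4 lower), 7 on day 3 (1 higher and 6 lower), 12 over both days (3 higher and 9 lower), 3 between days and 1 for the interaction. The shares of all genes were, in that order, 7.67%, 16.9%, 14%, 5.7% and 10.2%. Below 0 were 28 of 36 on day 3, 18 of 36 on day 7 and 25 in the test over both days. The 7 STAT factors were all below 0 on day 3 and over both days, while on day 7 2 of the 7 and all 4 JAK kinases were above 0. The medians were -0.08 for day 3, 0.00 for day 7 and -0.05 for both together, against 0.004, -0.001 and 0.004 over all genes. The share of all genes below 0 was not counted. Of the windows with the highest mean CPM, 80.3% were below 0 on day 3 and 69.2% over both days, and the part of this in the pathway sums was not tested.

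The smallest p over both days was that of Pim1, a kinase gene that STAT5 induces, with 33.0 ± 2.85 CPM per kb in day 3 R26WT and 28.1 ± 2.93 in day 3 R26TIR1(F74G), and a difference of -0.15 (SE 0.04, adjusted p = 0.142). Sh2b3, the gene of the adaptor LNK that dampens JAK2 signalling, was at 31.8 ± 1.83 and 26.4 ± 2.32 CPM per kb on day 3, a difference of -0.21 (SE 0.06, adjusted p = 0.116). On day 7 the smallest p belonged to Ccnd2, a cyclin gene induced by STAT5, with 37.7 ± 1.94 in R26WT and 42.2 ± 1.37 CPM per kb in R26TIR1(F74G) and a difference of 0.17 (SE 0.05, adjusted p = 0.560). On day 3 it was at 40.2 ± 1.80 and 36.3 ± 3.34 CPM per kb, a difference of -0.08 (SE 0.05), and its interaction of 0.25 (SE 0.07, unadjusted p = 0.00151, adjusted p = 0.310) had the smallest p of the 36. Stat2, the gene of a STAT factor of interferon signalling, came next with an interaction of 0.23 (SE 0.12, unadjusted p = 0.0528, adjusted p = 0.494). Ptpn6, the gene of the phosphatase SHP-1, was at 11.1 ± 1.59 and 14.4 ± 0.623 CPM per kb, a difference of 0.37 (SE 0.12, adjusted p = 0.560). Between days, Il21r (-0.12, adjusted p = 0.870) and Il6ra (-0.13, adjusted p = 0.870), which encode receptor chains, had the smallest p.

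**Figure D5:**
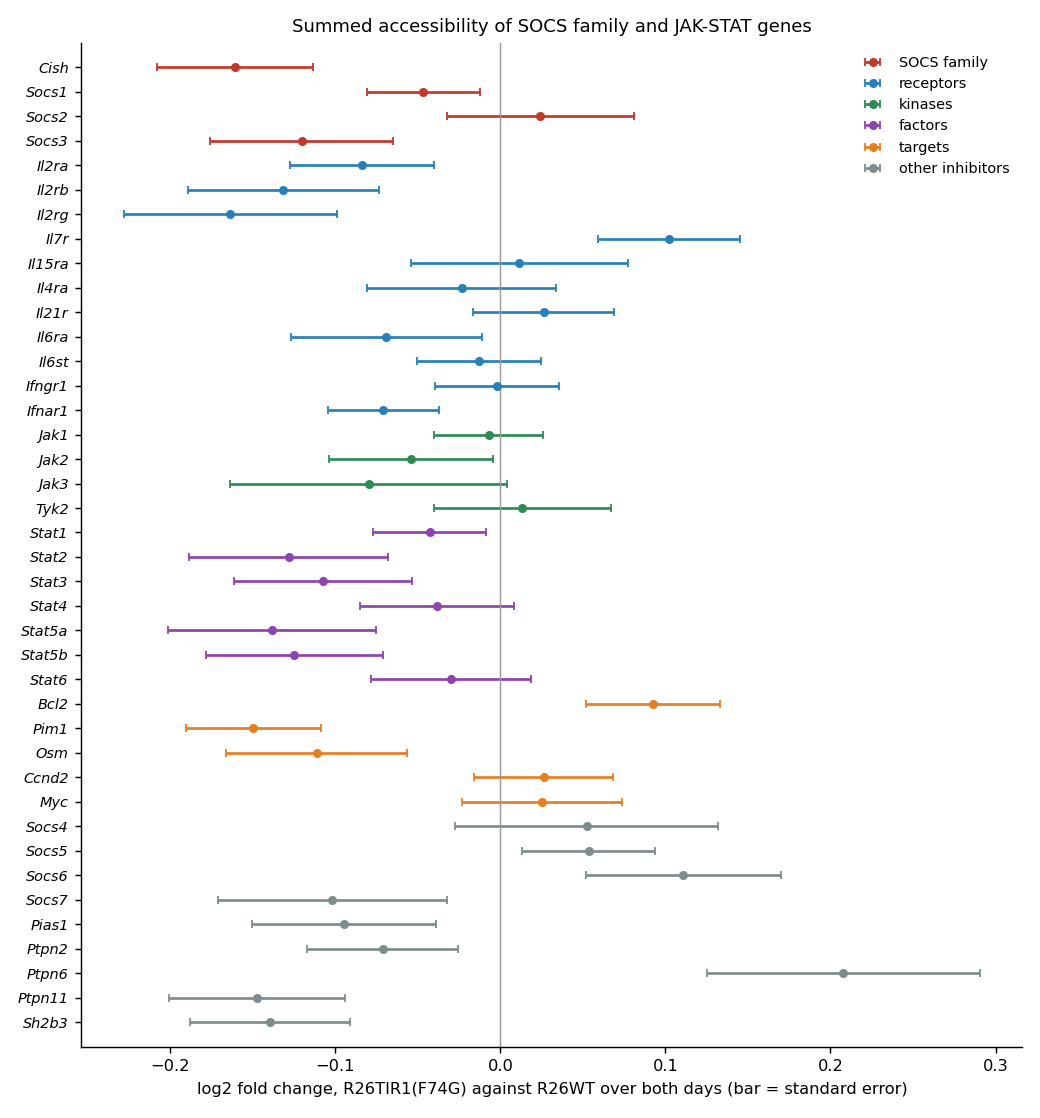
Log2 difference of R26TIR1(F74G) against R26WT over both days on summed counts, with bars for ± SE, for the 4 SOCS family genes and 36 other genes of cytokine signalling grouped by role. Cish (-0.16) lies among the lowest values, near Pim1 (-0.15). All 7 STAT factors are among the 25 of the 36 other genes that are below 0, and no gene is called. Of the windows with the highest mean CPM, 69.2% were below 0 over both days.

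Over the 14 libraries, the genes whose log2 summed level ran most like that of a member, among 13190 genes, were Rab8b (Pearson r = 0.964), Kdm2b (0.946) and Ficd (0.935) for Cish. For Socs1 they were Mrps26 (0.946), Ppif (0.945) and Btbd6 (0.943), for Socs3 Srsf4 (0.940), Abhd15 (0.932) and Ilrun (0.931), and for Socs2 Slc12a2 (0.820), Slc35d1 (0.819) and Rala (0.817). Between members r was 0.679 for Cish and Socs3, 0.522 for Socs1 and Socs3, and 0.521 for Socs1 and Cish. For Socs2 it was 0.099 with Cish, -0.130 with Socs1 and -0.446 with Socs3. Ranked by r among the 13190 genes, Socs3 came at 1081 for Cish, and Cish at 1467 for Socs3. For Socs1, Socs3 came at 4440 and Cish at 4441. The points share library, genotype and depth, and r with the log2 total count was 0.526 for Socs1 and between -0.044 and 0.110 for the others.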

How the data were processed

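ATAC-seq was done on sorted Treg cells of 14 mice. The authors aligned reads with Bowtie2 to mm10 (GRCm38), called peaks with MACS2, merged them into an atlas and counted reads over summit windows with featureCounts, and the deposited table holds these raw read counts per window, with no normalization. No column was left unused.

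Each window was given to the protein-coding start site nearest its centre, within 100 kb. The genotypes were compared within each day and across the days (day as a covariate), the days were compared with genotype as a covariate, and the interaction of both was tested. The test was edgeR's quasi-likelihood test (edgeR 4.0.16, limma 3.58.1, R 4.3.3) with TMM factors, on windows whose mean count reached 10, with Benjamini-Hochberg adjustment over all windows and a threshold of 0.05. Counts were also summed per gene, leaving out each window that overlaps a more accessible one, and fitted across all genes. SE is the size of the log2 difference divided by the square root of the F statistic. Values in CPM and per kb of counted window were computed from the counts, and the scripts were tested on simulated data.

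The members and lists were chosen with earlier results of these data known. Named windows are, for each gene, the one nearest the start site and the 2 with the highest mean CPM, any past the threshold, and for each comparison the 2 members with the smallest p. The result for 1 of the listed marker genes is not reported here. Named pathway genes have the 2 smallest p in a comparison, and those most like a member have the 3 highest Pearson correlations of log2 CPM (0.5 added) among genes with at least 3 windows.

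Alternatives were DESeq2 (1.42.0, the tool the authors used), DESeq2 size factors, loess offsets, a minimum mean count of 50 or none, a threshold of 0.1, windows within 10 kb, other handling of overlapping windows, the replicate number, the mouse name prefix and the sequencing index group as terms, all 14 libraries in 1 fit, and leaving out each library. Of these, loess offsets, the minimum of 50, the threshold of 0.1, the limit of 10 kb, the prefix, the index group and the fit of all 14 libraries were run on windows only. Leaving out both shallow libraries (fewer than 10000000 counts) and the interaction on summed counts were added after the data were seen. Replicates were separate libraries (18 pairs, none identical, chi-square per degree of freedom 1.62 to 2.46), each taken as 1 mouse, so p-values measure the spread between mice. Per library, Socs1 had 1605 to 6446 counts in its sum, Socs3 617 to 2169, Cish 493 to 1935 and Socs2 420 to 1622, which sets the counting precision.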

Additional observations from a re-analysis of the deposited data

Results flagged for a closer look

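In the 40 groups of 4 mice examined, those of day 3 at the named windows and in the sums of the 4 genes, 3 had 1 mouse far from the other 3, measured by its gap to the nearest as a share of the group's range (Dixon's test), and chance gives about 1 in 20, or 2.0 groups. At Socs2 -19, day 3 R26WT replicate 4 had 7.08 CPM against 6.06, 6.09 and 6.15 CPM, a gap of 0.915 of the range. At Socs3 +17991, day 3 R26TIR1(F74G) replicate 1, the shallowest library, had 16.5 CPM against 10.5, 10.8 and 11.2 CPM, a gap of 0.882. At Cish +9660, day 3 R26WT replicate 4 had 9.15 CPM against 5.97, 6.15 and 6.42 CPM, a gap of 0.86.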

How the results depend on the processing

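The count of member windows called was 0 in all 5 comparisons under each alternative run (17 for day 7, 20 for day 3, 26 across the days, 25 between days and 25 for the interaction). Summed counts had fewer alternatives (11 for day 7, 13 for day 3 and 20 for each of the others). Loess offsets, the mouse name prefix and the index group were not among them. The count of member genes called on summed counts was 0 under all alternatives run but 1, since DESeq2 over both days called 1 gene, Cish (adjusted p = 0.0484, log2 difference -0.16, against 0.150 by edgeR). DESeq2 called 212 genes of 15959 there and edgeR 11, and over all windows DESeq2 called 155 and edgeR 27, with 83 where the minimum mean count was 50 and 113 without both shallow libraries, while leaving out single libraries gave 2 to 56. Over all alternatives the windows called were 0 to 52 on day 7 (11 in the edgeR test), 0 to 30 on day 3 (0), 4 to 17 between days (8) and 0 to 19 for the interaction (0), and the genes called on day 3 were 0 to 131 (26). Signs turned for values near 0. Leaving out single libraries moved the Socs1 sum on day 7 between -0.015 and 0.052 (0.02 with all libraries), the Socs1 sum between days between -0.0031 and 0.034, the Socs2 sum over both days between -0.013 and 0.048 and the Cish sum between days between -0.0020 and 0.053, and without both shallow libraries the last was -0.0070. The cause was not tested. With the replicate block no member window or gene was called and no member call changed, and it moved the count of all windows called to 52 on day 7, 20 over both days and 4 on day 3, and that of all genes called on day 3 to 114. Same-numbered mice did not deviate together (correlations between -0.174 and 0.0652), so the numbers were taken not to pair them. Fitted with the prefix of the mouse names, the Cish -833 difference over both days was -0.37, and with the index group it was -0.40. In the shallowest library Cish had 493 counts in its sum, so small differences there were not resolved.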
